A study of Mus musculus with 18 samples.

Results

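The livers of normal control, high-fat diet and SZ-A-treated mice were compared for 34 genes of the endoplasmic reticulum (ER) protein-folding machinery and the unfolded protein response. The genes were taken by name from a fixed list, and each was found among the 54532 genes of the expression table. They fell into 10 chaperones and co-chaperones, 5 genes of disulfide exchange (4 of the protein disulfide isomerase, PDI, family and Creld2), 7 genes of ER-associated degradation, 4 genes for the stress sensors and their transcription factor Xbp1, and 8 genes of the ATF4-CHOP branch. All 34 are protein-coding and passed the filter of a mean of at least 1 FPKM (fragments per kilobase of gene, scaled to the size of the library) over the 18 mice, which left 10216 genes to be tested. A second, short row that also carries the name Ddit3 was at 0 in every mouse and was not used.

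Liver RNA was sequenced from 6 mice per group. The normal control (NC) mice ate a standard diet. The high-fat diet (HFD) mice ate the diet D12492 for 14 weeks and then received saline while the diet continued. The SZ-A mice were fed in the same way and received SZ-A, the alkaloids of Ramulus Mori (mulberry twig, Morus alba L.), in place of saline. All were male C57BL/6J mice aged 6 weeks when first housed and carried no allele or transgene that the labels name. Treatment lasted 6 weeks by the methods but 8 weeks by the description given to GEO, and the dose and route used for the sequenced mice are not given in the sources used here. The methods state an overnight fast before the livers were taken. The mouse NC6 is titled as a chow mouse but carries a high-fat diet label, and it was kept in NC. Without it, the same 5 members were called in HFD against NC mice as with it. Each library held 17163191 to 20493907 fragments on genes. No source says that mice of different groups were paired, and p-values measure the spread between these mice.

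Proteins that enter the ER are folded there by chaperones, glycosylated and joined by disulfide bonds, and the liver passes large amounts of plasma protein through this route. When unfolded proteins build up, the sensors IRE1 (gene Ern1), ATF6 and PERK (gene Eif2ak3) start the unfolded protein response. IRE1 splices Xbp1 mRNA and ATF6 is cut to release a transcription factor, and both raise chaperone and degradation genes. PERK phosphorylates eIF2α, which slows translation and favours ATF4, a factor that other kinases of the integrated stress response, such as the amino acid sensor GCN2, also bring on. Gene-level values cannot tell spliced from unspliced Xbp1 mRNA, and neither phosphorylation nor cleavage was measured.

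ATF6 and XBP1 are known to act on chaperone genes through a short promoter sequence, and the copies upstream of the start site are shown for the members that hold it. The ER stress response element (ERSE) was searched as CCAAT and CCACG with 9 bases between them, on both strands, in RefSeq promoters of build GRCm38.p6 from 250 bases before to 50 bases after the transcription start. A promoter was at hand for 30 members, and Derl1, Manf, Atf6 and Hyou1 had no entry. The element stood in 39 of 32851 promoters, or 0.119%, and in those of 9 of the 30 members. The capitals below mark its fixed letters. They read CCAAT then CCACG in the sense direction and CGTGG then ATTGG in the antisense direction, always 5′ to 3′ on the gene's strand.
Hspa5 (chr2:34772020-34772048, plus strand): cttcaCCAATcggaggcctCCACGacggg
Hsp90b1 (chr10:86705521-86705563, minus strand): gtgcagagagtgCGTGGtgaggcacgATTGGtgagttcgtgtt
Calr (chr8:84847063-84847105, minus strand): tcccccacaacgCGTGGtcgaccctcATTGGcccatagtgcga
Canx (chr11:50325788-50325830, minus strand): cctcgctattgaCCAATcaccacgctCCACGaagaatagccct
Dnajc3 (chr14:118937815-118937857, plus strand): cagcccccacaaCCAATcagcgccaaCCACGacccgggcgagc
Pdia6 (chr12:17266479-17266521, plus strand): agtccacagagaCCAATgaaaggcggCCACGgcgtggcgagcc
Creld2 (chr15:88819508-88819550, plus strand): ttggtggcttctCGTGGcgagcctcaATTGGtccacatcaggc
Syvn1 (chr19:6046520-6046562, plus strand): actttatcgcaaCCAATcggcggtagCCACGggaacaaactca
Derl3 (chr10:75893230-75893272, plus strand): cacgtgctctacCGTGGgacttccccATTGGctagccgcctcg

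The 9 elements printed began between 44 and 162 bases before the RefSeq start, and Hsp90b1 held a second copy farther upstream, from base -212 to base -194. The Hspa5 copy lies within the first exon of a longer transcript in the GENCODE M21 annotation, which starts the gene earlier, and the other 8 lie in no annotated exon. With the last base of the element left free, 0.365% of all promoters and 13 members matched, and the added members were Derl2, Herpud1, Pdia3 and Pdia4.

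The ATF4-CHOP branch was searched for the amino acid response type of element (CARE), spelled TGATG and AA with any 1 base between them, which is short and stood in 3.97% of all promoters. It was found in 4 of the 30 members, namely Asns, Chac1, Herpud1 and Trib3. Asns and Chac1 are shown because they were the members that differed most between the diets, in opposite directions. The capitals mark the fixed letters, which read TT, any base and CATCA in the antisense direction.
Asns (chr6:7693220-7693237, minus strand): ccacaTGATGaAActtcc
Chac1 (chr2:119351037-119351068, plus strand): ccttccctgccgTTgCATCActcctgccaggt
Herpud1 held both an antisense CARE and the related ERSE-II element (ATTGG and CCACG with 1 base between them, in 0.0365% of all promoters), and the stretch that spans them is shown because no other member had both.
Herpud1 (chr8:94386305-94386399, plus strand): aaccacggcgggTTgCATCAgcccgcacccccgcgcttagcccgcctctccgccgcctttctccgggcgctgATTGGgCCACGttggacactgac

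The Asns element also lies in an exon of a longer GENCODE transcript. The Trib3 copy of CARE and the Dnajb11 copy of ERSE-II lie after the start site and are not shown. Other elements searched were TGACG followed directly by TGG (0.676% of promoters, no member), TGACG followed by TGA (0.441%, Hspa5) and TGACG followed by TCA (1.79%, Ppp1r15a). A match describes the letters in these windows and shows no binding, and no match says nothing about a factor.

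**Figure D1:**
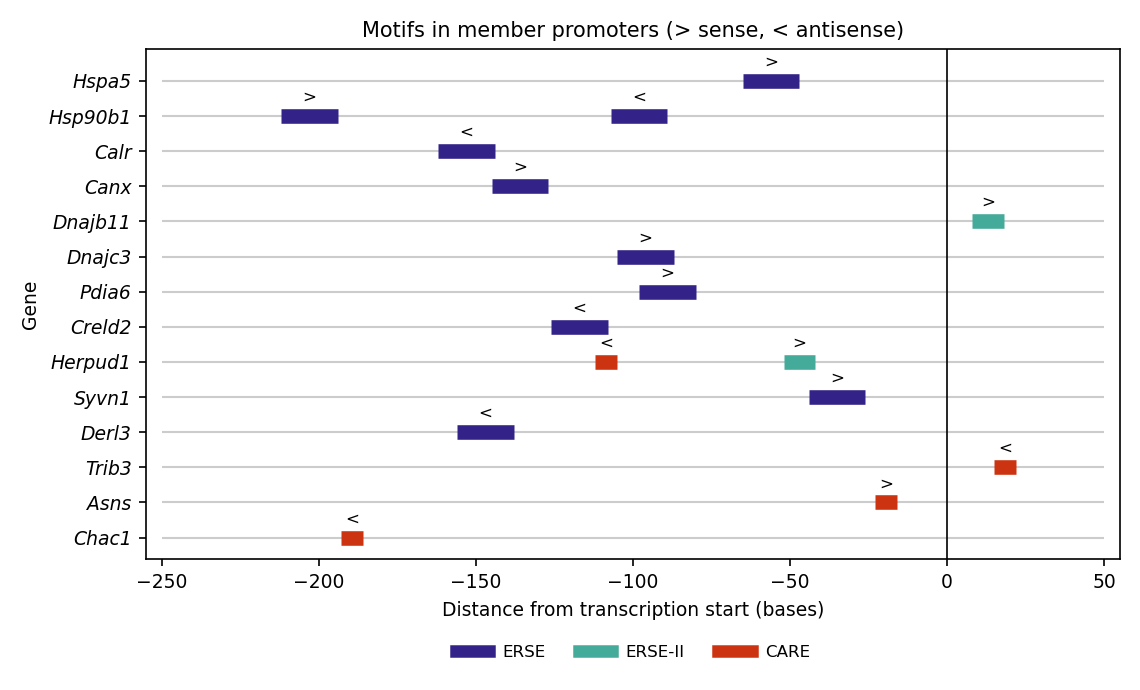
Positions of the ERSE, ERSE-II and CARE elements in member promoters, by distance in bases from the RefSeq transcription start; each grey line is the 300-base promoter of 1 gene and each coloured bar 1 element. The elements before the start lie between base -212 and base -16, and those of Dnajb11 and Trib3 lie after it.

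The mice of each group differed widely in the folding genes. Hspa5 encodes BiP, the HSP70 chaperone of the ER, and ran in NC mice from 84.3 FPKM (NC5) over a median of 218.5 to 303.8 (NC4). In HFD mice it ran from 152.4 (HFD2) over a median of 248.3 to 796.8 FPKM (HFD5), and in SZ-A mice from 138.7 (SZ-A2) over a median of 248.7 to 538.5 FPKM (SZ-A5). The groups overlapped, although the highest HFD and SZ-A mice lay above every NC mouse, and the highest mouse of each group was 3.6 to 5.23 times the lowest. Sdf2l1, a partner of the BiP co-chaperone ERdj3, spanned 4.4 to 29.6 FPKM for NC (median 14.96), 11.7 to 119.2 for HFD (median 27.3) and 8.19 to 97.5 for SZ-A (median 35.9). Its lowest and highest mice were NC5 and NC4, HFD2 and HFD5, and SZ-A2 and SZ-A5, the same as for Hspa5.

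The same mice stood at the ends for nearly all of the 15 chaperone and disulfide exchange genes. HFD5 was the highest HFD mouse for 15 of the 15 and SZ-A5 the highest SZ-A mouse for 14, while in NC the highest was NC3 for 8 and NC4 for 6. The lowest mouse was NC5 for 14 of the 15 genes, HFD2 for 14 and SZ-A2 for 15. Summed over the 15 genes, the values were 897 to 1870 FPKM for NC (median 1487), 1121 to 3578 for HFD (median 1746) and 1122 to 2920 for SZ-A (median 1809). The 15 values per mouse come from 1 library and are not independent of each other.

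**Figure D2:**
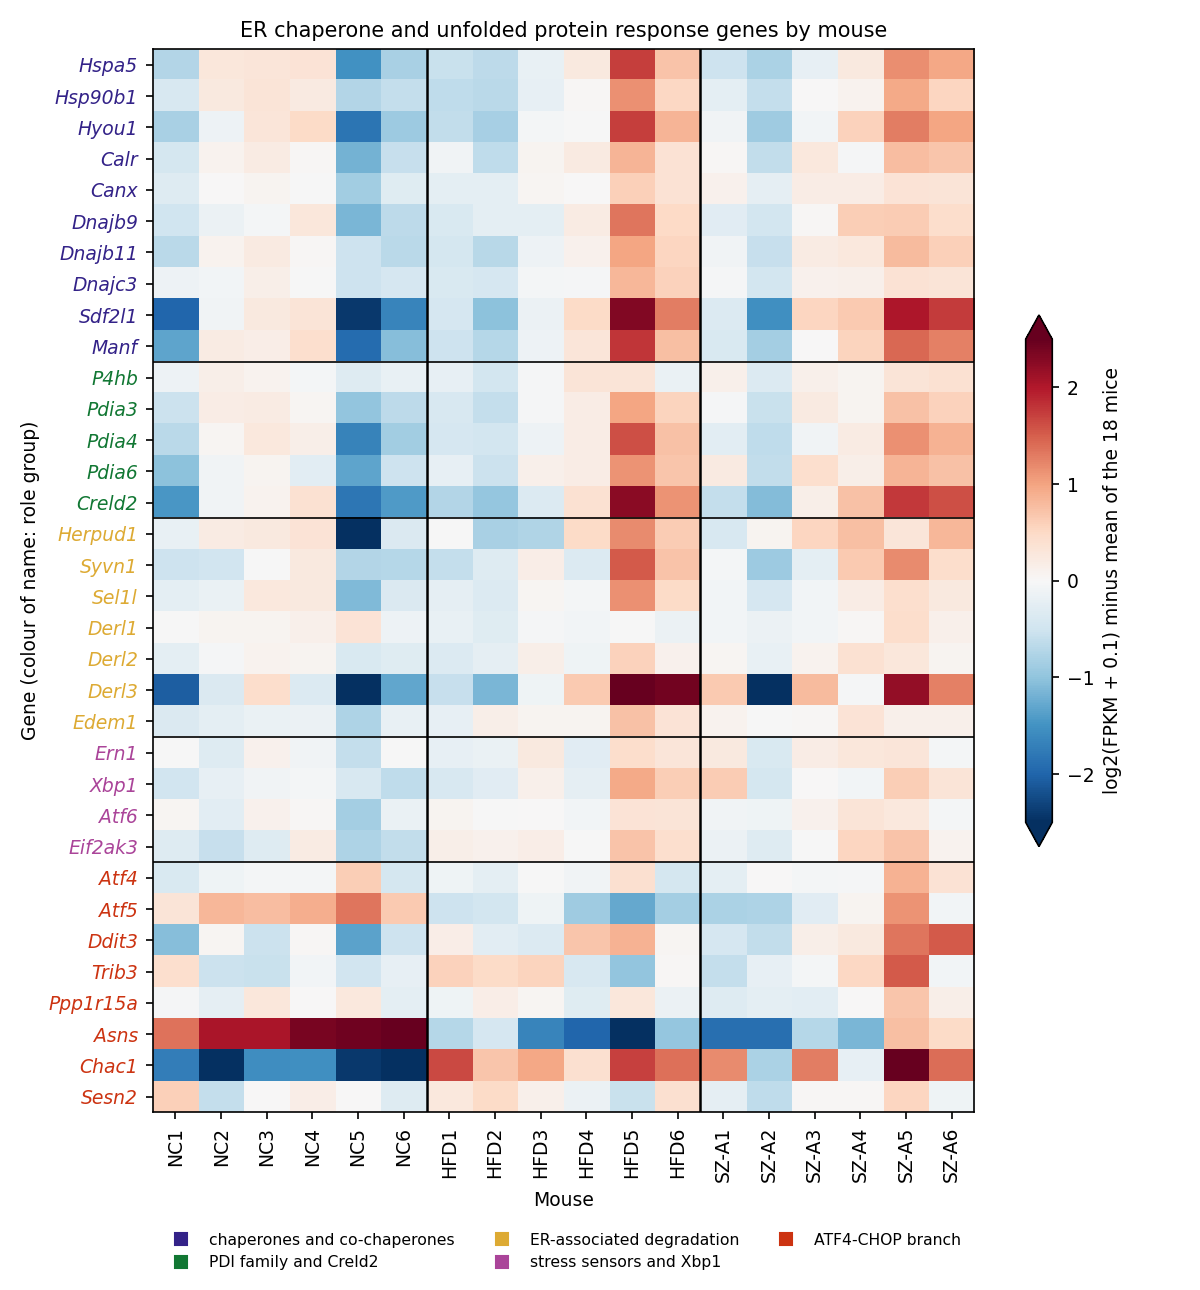
Level of the 34 genes (rows, by role) in the 18 mice (columns, by group), as log2(FPKM + 0.1) minus the mean of the gene over all mice; red is above and blue below that mean, and colours end at 2.5 in either direction. The chaperone and disulfide exchange rows share their dark red columns at HFD5 and SZ-A5 and their blue columns at NC5, HFD2 and SZ-A2, whereas the rows of Asns and Chac1 divide NC from both other groups and that of Atf5 divides NC from HFD, with SZ-A5 near the NC level.

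This spread was large beside that of other genes. The standard deviation (SD) between mice of a group, pooled over the 3 groups on the log2(FPKM + 0.1) scale, had a median of 0.52 over the 34 members and 0.21 over the 10216 genes tested. It was above the 90th percentile of all genes tested (0.47) for 20 of the 34 members. By role these were 8 of the 10 chaperones, 4 of the 5 disulfide exchange genes, 3 of the 7 degradation genes, 5 of the 8 genes of the ATF4-CHOP branch and none of the 4 sensor genes. The most variable members were Derl3 (SD 1.501), Sdf2l1 (1.25) and Creld2 (1.12), and the least variable was Derl1 (0.17). Derl3 and Derl1 encode derlins, membrane proteins of the channel through which misfolded proteins leave the ER, so members of the same family lay at opposite ends. P4hb, the classical PDI and the most abundant member of all per length of gene (mean 450.5 FPKM in NC mice), varied less than the other 4 disulfide exchange genes (SD 0.25), though more than the median gene tested. Genes with a mean of at least 10 FPKM, where counting error is small, had a median SD of 0.18.

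**Figure D3:**
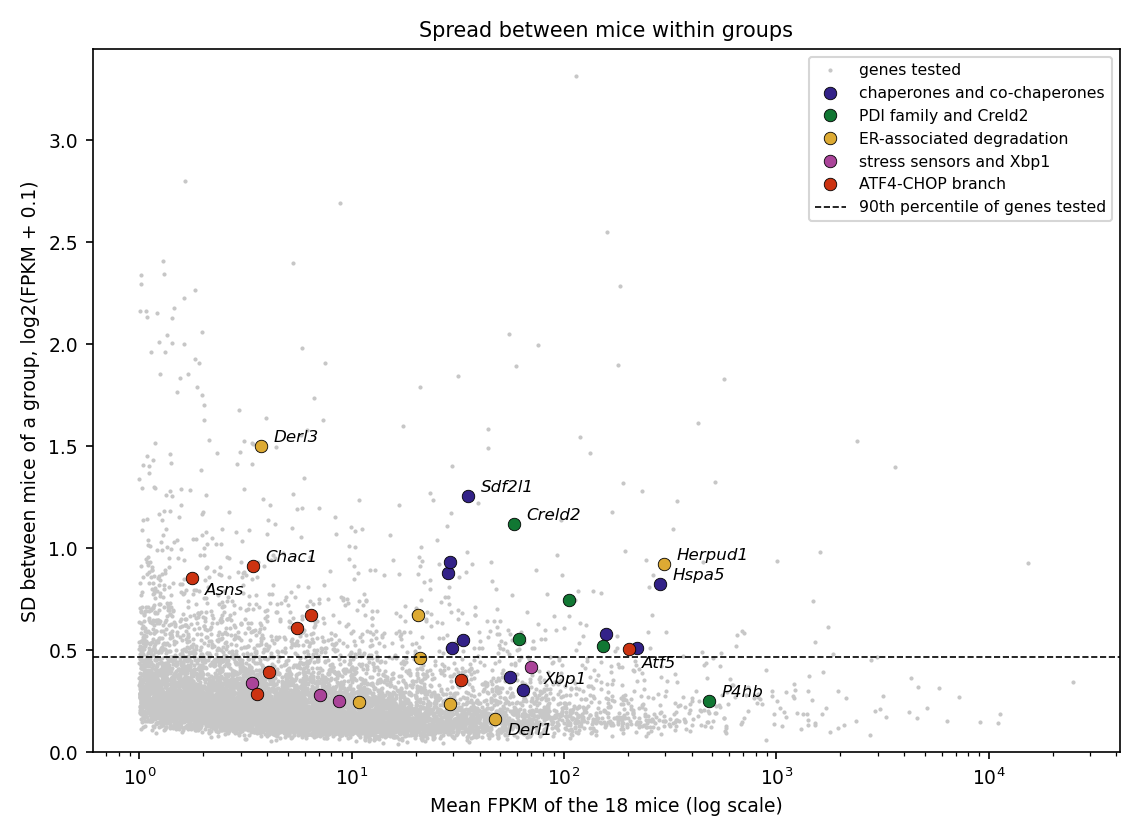
SD between mice of a group on the log2(FPKM + 0.1) scale, pooled over the 3 groups, against the mean FPKM of the 18 mice (log axis); grey points are the 10216 genes tested, coloured points the 34 members by role, and the dashed line the 90th percentile of all genes tested (0.47). The chaperones and disulfide exchange genes lie mostly above the line, and the 4 sensor genes lie below it.

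The 9 members with an ERSE had SDs of 0.31 to 1.501 (median 0.58), and the 21 members with a promoter and no ERSE had SDs of 0.24 to 1.25 (median 0.51). Sdf2l1, Hyou1 and Manf, which varied as much as the ERSE genes, had no ERSE in the window searched or no promoter entry. The 5 other genes tested that hold an ERSE, Acacb, Acnat2, Alg12, Hnrnpa3 and Pan2, had a median SD of 0.40.

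Other measures also differed in these mice. The cytosolic chaperones Hspa8 and Hsp90aa1, which do not act in the ER, were at 350 and 54.8 FPKM in NC5, 620.4 and 145.9 in HFD5 and 685.6 and 231.8 in SZ-A5. The 19 cytosolic heat shock genes summed to 1333 FPKM in NC5, the lowest of NC, and to 2208 FPKM in HFD5, the highest of HFD, and SZ-A5 (2784 FPKM) came just below SZ-A6 (2917 FPKM). Igfbp1, which falls with insulin and feeding, was 622.4 FPKM in NC5 and 435.7 in SZ-A5, against 21.2 to 349.4 FPKM in the other NC and 9.45 to 43.9 FPKM in the other SZ-A mice, and HFD5 (45.7 FPKM) lay within its group. The clock output gene Dbp was 0.99 FPKM in NC5 and 7.22 in SZ-A5, the lowest of their groups, and 24.5 in HFD5, within its group. The hepatokine gene Fgf21, a target of ATF4 and PPARα, was 142.6 FPKM in SZ-A5, the highest of all mice, 8.05 in NC5, the lowest of NC, and 10.2 in HFD5, within its group. The hour at which each liver was taken is not given, and the part of these differences in the results was not tested. The values are from whole liver, in which fewer cells of a type and less RNA per cell cannot be told apart.

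Compared with NC mice, HFD mice differed in 5 of the 34 members. Chac1, Eif2ak3 and Edem1 rose and Asns and Atf5 fell. A gene was called where limma gave an adjusted p below 0.05 together with more than a 1.2-fold difference, and the called share of members was 14.7%, against 20.2% of all genes tested. Of the members 8.82% were called higher and 5.88% lower, against 10.7% and 9.49% of all genes. None of the 15 chaperone and disulfide exchange genes was called.

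Chac1, which degrades glutathione and is a known target of ATF4 and CHOP, had values of 0.18 to 0.57 FPKM for NC (median 0.38), 2.46 to 6.27 for HFD (median 4.34) and 1.02 to 16.5 for SZ-A (median 4.45). Every HFD mouse and every SZ-A mouse lay above every NC mouse. The log2 fold change in HFD against NC mice was 3.26 ± 0.30 (SE, n = 6 per group, adjusted p = 2.78e-05 in limma), on the log2(FPKM + 0.1) scale, which understates changes of genes with low values. The NC values rest on 5 to 19 fragments per mouse.

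Asns, the asparagine synthetase and another known ATF4 target, went the other way. It had values of 2.41 to 5.46 FPKM for NC (median 4.48), 0.059 to 0.64 for HFD (median 0.31) and 0.16 to 1.55 for SZ-A (median 0.42). Every NC mouse lay above all mice on the high-fat diet. The log2 fold change in HFD against NC mice was -3.52 ± 0.35 (SE, adjusted p = 4.35e-05 in limma), and the HFD values rest on 3 to 40 fragments per mouse.

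Atf5, a liver-rich transcription factor that is translated under eIF2α phosphorylation, had values of 221.9 to 445.1 FPKM for NC (median 307.1) and 72.6 to 162.7 for HFD (median 110.4). The groups did not overlap, and the log2 fold change was -1.49 ± 0.19 (SE, adjusted p = 2.66e-04 in limma). In SZ-A mice it ran from 102.2 to 384.1 FPKM (median 156.3), with SZ-A5 alone above the lowest NC mouse. Chac1 was the only member of which all HFD mice lay above all NC mice (2.94% of members, 5.48% of all genes), and Atf5 and Asns were the only members of which all lay below (5.88% of members, 4.97% of all genes).

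Eif2ak3, which encodes PERK, had values of 1.88 to 3.77 FPKM for NC (median 2.36) and 3.25 to 5.38 for HFD (median 3.64), so that only NC4 reached the range of HFD mice. Its log2 fold change was 0.66 ± 0.16 (SE, adjusted p = 0.0125 in limma). Edem1, a lectin that sends misfolded glycoproteins to degradation, had values of 16.6 to 25.8 FPKM for NC (median 24.4) and 24.6 to 47.2 for HFD (median 30.6). Only HFD1 lay within the NC range, and the log2 fold change was 0.51 ± 0.15 (SE, adjusted p = 0.0281 in limma). Without HFD6, the call of Edem1 was lost (adjusted p = 0.0557), and the fit without a filter on low values lost it too (adjusted p = 0.0759).

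Ddit3 encodes CHOP, the factor of prolonged ER stress, and had values of 2.16 to 5.79 FPKM for NC (median 3.84), 4.36 to 10.3 for HFD (median 6.05) and 3.59 to 16.3 for SZ-A (median 6.41). The groups overlapped, and the log2 fold change in HFD against NC mice was 0.76 ± 0.27 (SE, adjusted p = 0.0611 in limma). Pdia6 (0.76 ± 0.29, adjusted p = 0.0808) and Derl3 (1.73 ± 0.71, adjusted p = 0.102) came next and were not called. Ddit3 was called without NC2, without NC4 or without HFD3, and Pdia6 without HFD2. With every mouse scaled to the same summed FPKM, the calls took in Ddit3, Pdia6 and Xbp1 and 6 members were called higher, and that scaling moved the median of all genes tested from -0.03 to 0.15.

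**Figure D4:**
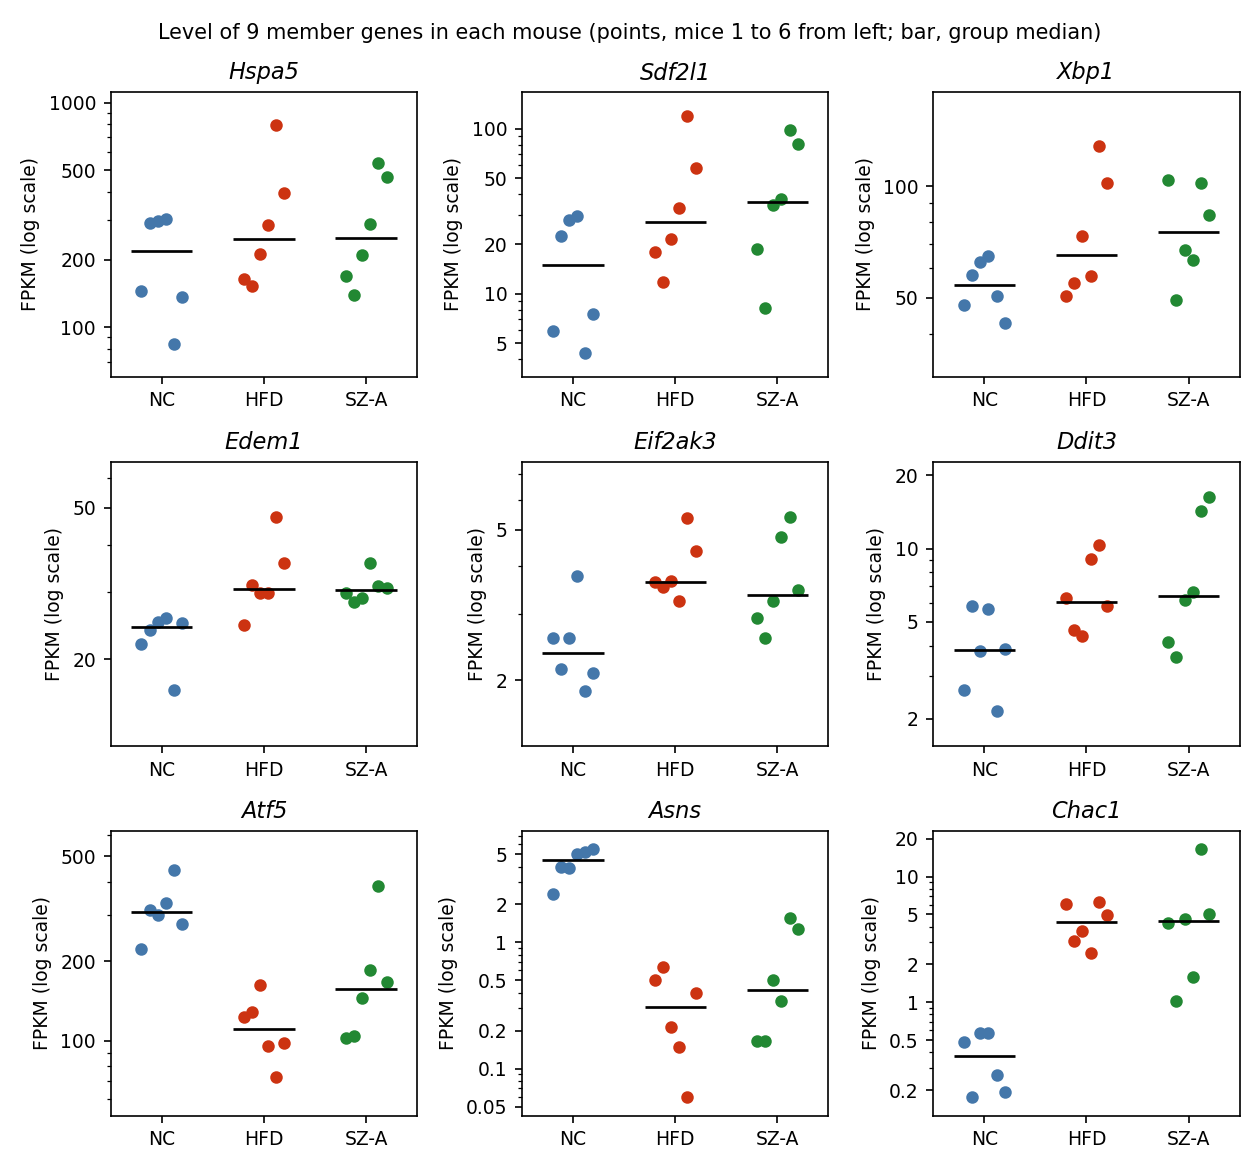
FPKM (log axis) of 9 genes in each mouse of the NC, HFD and SZ-A groups, with mice 1 to 6 of a group from left to right; bars are group medians (n = 6). Asns and Chac1 separate NC from HFD mice with no overlap, as does Atf5, whereas Hspa5, Sdf2l1 and Xbp1 overlap widely and are topped in HFD by HFD5.

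Atf4 itself was nearly level between NC and HFD mice. It had values of 23.4 to 48.9 FPKM for NC (median 30.0) and 23.4 to 41.8 for HFD (median 29.8), and the log2 fold change was -0.01 with a 95% interval of -0.38 to 0.36. The intervals of Trib3 (0.28, from -0.29 to 0.86), a pseudokinase induced by CHOP, of Ppp1r15a (-0.02, from -0.29 to 0.25), the phosphatase subunit that reverses eIF2α phosphorylation, and of Sesn2 (0.12, from -0.33 to 0.56), a sestrin that restrains mTORC1, all held 0. The 8 genes of this branch thus held the largest differences of the set in both directions beside members with differences near 0.

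Among the sensors, Xbp1 had values of 42.9 to 64.8 FPKM for NC (median 54.1), 50.7 to 128.2 for HFD (median 65.2) and 49.4 to 104.0 for SZ-A (median 75.4). The log2 fold change of total Xbp1 in HFD against NC mice was 0.44, with a 95% interval of -0.02 to 0.90. Atf6 (0.28, from -0.04 to 0.60) and Ern1 (0.21, from -0.12 to 0.54) were not called either.

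Fold changes in HFD against NC mice were above 0 for 29 of the 34 members (85.3%), against 45.1% of all genes tested, with a median of 0.42 against -0.03. All 10 chaperones (0.19 to 1.34), all 5 disulfide exchange genes (0.04 to 1.01) and 6 of the 7 degradation genes lay above 0, and at an unadjusted p under 0.05 there were 10 members (29.4%, against 34.8% of all genes). The members' values in a mouse come from the same library, so the 34 differences are not separate measurements. Without HFD5 the median was 0.27, without NC5 it was 0.27, and with HFD5 and NC5 both left out, a choice made after seeing the data, it was 0.10, while the same 5 members were called. Sample weights, which give less weight to mice far from their group, also gave a median of 0.10.

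The other chaperones were not called either. Hsp90b1, the HSP90 of the ER, had a median of 140.7 FPKM in NC mice and 138.9 in HFD mice, with HFD5 at 325.1 FPKM above all other mice (log2 fold change 0.19, 95% interval -0.46 to 0.85). Calr and Canx, the lectin chaperones of new glycoproteins, had log2 fold changes of 0.45 (from -0.12 to 1.01) and 0.32 (from -0.07 to 0.71). Hyou1, which exchanges nucleotide on BiP, and Manf, a small secreted protein that binds BiP, had 0.66 (from -0.34 to 1.66) and 0.83 (from -0.19 to 1.86). The J-domain partners of BiP, Dnajb9, Dnajb11 and Dnajc3, had 0.56, 0.31 and 0.26, and Sdf2l1 had 1.34 (from 0.02 to 2.67) with an adjusted p of 0.137 in limma.

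The other disulfide exchange genes, Pdia3, which works with Calr and Canx, Pdia4 and Creld2, had log2 fold changes of 0.41, 0.71 and 1.01 in HFD against NC mice. In the degradation group, Herpud1, a scaffold of the ubiquitin ligase complex, had 0.59, with 30.5 FPKM in NC5 against 200.2 to 326.0 FPKM in the other NC mice. Syvn1, the ligase HRD1, and its partner Sel1l had 0.57 and 0.40. Derl2 had 0.16, and Derl1 was the only member outside the ATF4-CHOP branch below 0 (-0.20, 95% interval -0.38 to -0.01, adjusted p = 0.116).

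SZ-A mice were then compared with HFD mice. No member was called, against 0.147% of all genes tested (15 genes, 0.0783% higher and 0.0685% lower), and no member had an unadjusted p under 0.05 in limma, against 14.8% of all genes. No member was called under any of the alternatives run, voom on fragments included, and scaling to the same summed FPKM gave the most members at an unadjusted p under 0.05, namely 2. In no member did all SZ-A mice lie above or below all HFD mice, against 0.793% and 0.489% of all genes.

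The 95% intervals reached between 0.21 and 1.81 log2 units to either side, with a median of 0.62. A difference of the size of the median interval could have gone unseen for many members, so these data do not show that the groups were alike. The narrowest interval was that of Derl1, which was 38.0 to 46.4 FPKM for HFD (median 43.4) and 42.4 to 63.4 for SZ-A (median 46.0). Its log2 fold change was 0.17 (from -0.04 to 0.38, adjusted p = 0.431). The widest was that of Derl3 (-0.31, from -2.12 to 1.5).

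Atf5 had the smallest p in this comparison, with a log2 fold change of 0.57 (from -0.07 to 1.21, adjusted p = 0.396 in limma). SZ-A5 at 384.1 FPKM was far above the next SZ-A mouse at 185.8, and the log2 fold change without SZ-A5 was 0.32. Asns had 0.66 (from -0.52 to 1.83) and 0.36 without SZ-A5. It was 1.55 FPKM in SZ-A5 and 1.27 in SZ-A6, against 0.16 to 0.50 FPKM in the other SZ-A mice. Atf4 had 0.23 (from -0.16 to 0.62) with 58.3 FPKM in SZ-A5 and a median of 31.5 FPKM in the group, and 0.09 without that mouse. The remaining members with small p were P4hb (0.15, from -0.18 to 0.48), Sesn2 (-0.16, from -0.59 to 0.28), Herpud1 (0.23, from -0.50 to 0.96) and Derl2 (0.09, from -0.22 to 0.40). With 1 mouse left out, Herpud1 ranged from 0.04 (without HFD2) to 0.44 (without HFD5), P4hb from 0.07 to 0.24, Sesn2 from -0.29 to -0.04, Derl2 from 0.02 to 0.20 and Derl1 from 0.09 (without SZ-A5) to 0.21. P4hb, Derl1 and Derl2 changed sign when every mouse was scaled to the same summed FPKM.

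Chac1, called in HFD against NC mice, had a log2 fold change of -0.15 (from -1.29 to 1.0) in SZ-A against HFD mice, while its mean FPKM was higher in SZ-A (5.503) than in HFD mice (4.411). Its values were wider in SZ-A mice, where SZ-A2 and SZ-A4 were at 1.02 and 1.59 FPKM and SZ-A5 at 16.5. Hspa5 had -0.07 (from -1.01 to 0.87), total Xbp1 0.05 (from -0.49 to 0.59), Ddit3 0.17 (from -0.63 to 0.97) and Eif2ak3 -0.11 (from -0.50 to 0.27). Of the 34 members 22 (64.7%) lay above 0, against 56.2% of all genes, with medians of 0.06 and 0.03. The median of the members was -0.12 after scaling to the same summed FPKM and 0.22 without HFD5.

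**Figure D5:**
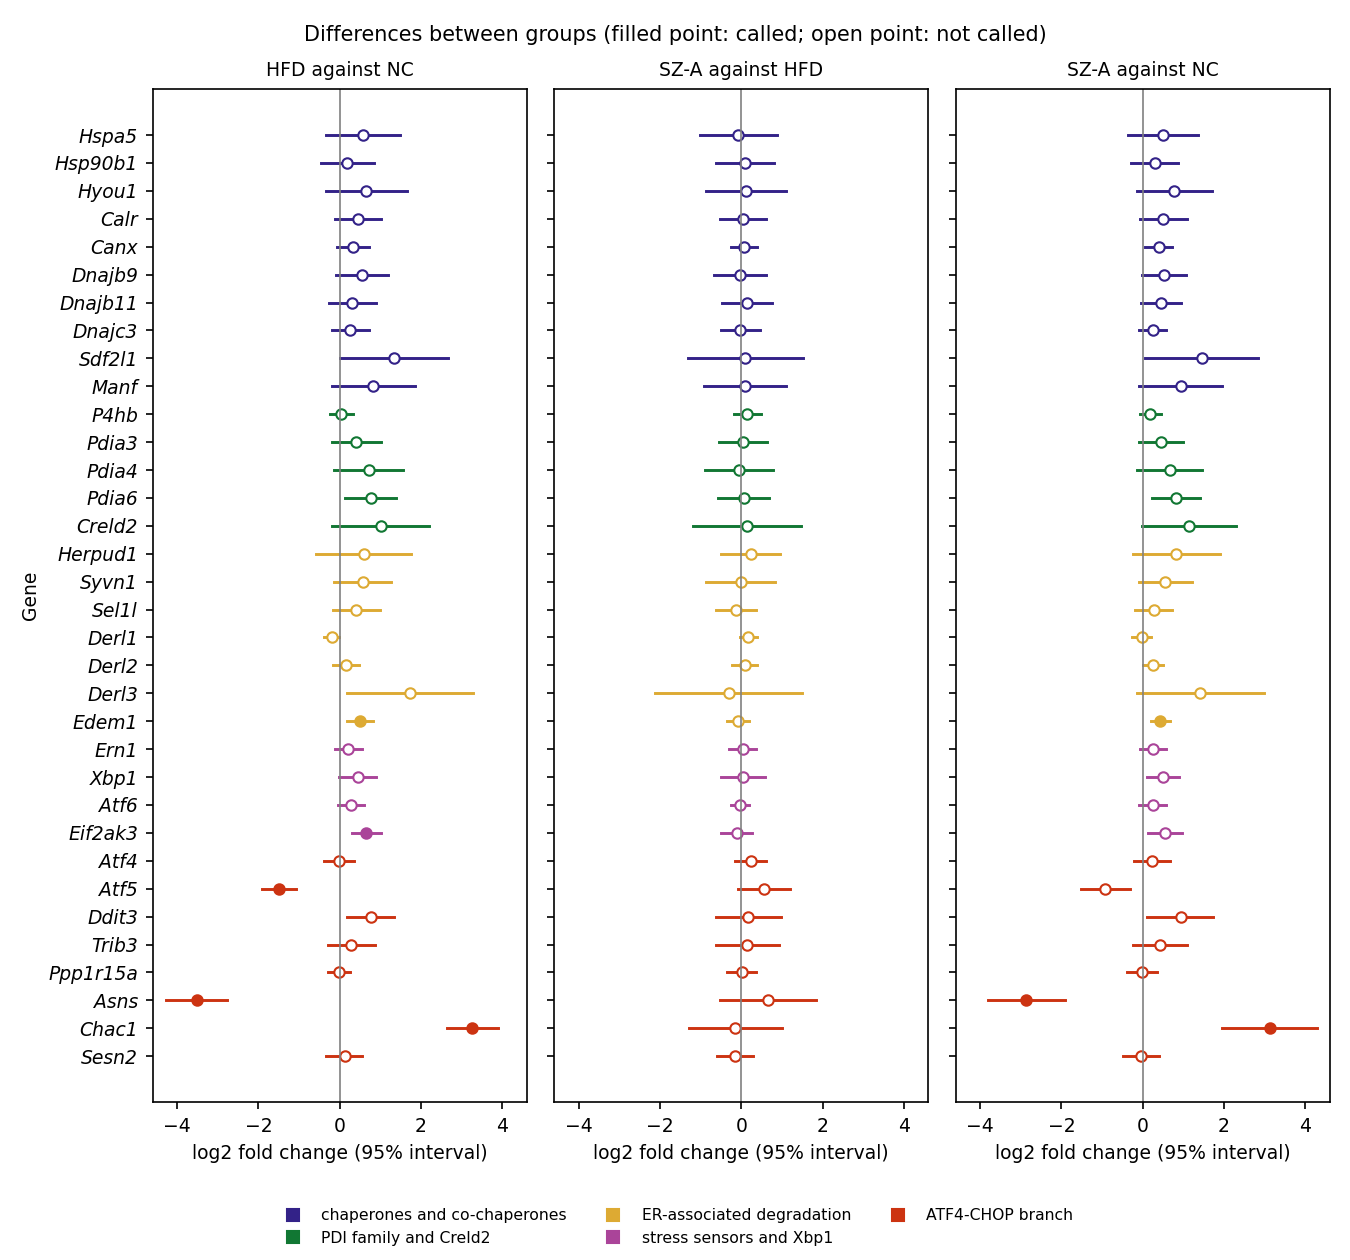
Log2 fold changes of the 34 members on the log2(FPKM + 0.1) scale (points) with 95% intervals (lines), in HFD against NC, SZ-A against HFD and SZ-A against NC mice, n = 6 per group; filled points were called in limma. Chac1 and Asns lie farthest from 0 in both comparisons with NC mice, and every interval in SZ-A against HFD mice holds 0.

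Against NC mice, SZ-A mice had 3 called members (8.82%, against 9.6% of all genes tested). Of these 2 were higher (5.88%, against 5.31% of all genes) and 1 lower (2.94%, against 4.3%), and 11 members had an unadjusted p under 0.05 (32.4%, against 25.5%). This comparison shares its NC mice with that of HFD mice, so the values are given side by side and are no repeat of it. Asns fell, with a log2 fold change of -2.86 ± 0.44 (SE, adjusted p = 0.00231 in limma), where HFD mice had -3.52. Chac1 rose, with 3.12 ± 0.54 (adjusted p = 0.00406) where HFD mice had 3.26. Both sets of mice were on the high-fat diet.

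Edem1 ran from 28.3 to 35.9 FPKM in SZ-A mice (median 30.3), above every NC mouse, and rose by a log2 fold change of 0.43 ± 0.11 (SE, adjusted p = 0.0236 in limma). Without SZ-A6 the adjusted p was 0.0501. Edem1 and Chac1 were the members of which all SZ-A mice lay above all NC mice (5.88%, against 2.83% of all genes), and Asns the only member of which all lay below (2.94%, against 2.67%).

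Atf5 had -0.92 ± 0.28 (SE, adjusted p = 0.0556 in limma) in SZ-A against NC mice, and was called with -1.17 when SZ-A5 was left out (adjusted p = 0.00299). The next members by p were Pdia6 (0.82 ± 0.27), Eif2ak3 (0.54 ± 0.20, with SZ-A mice from 2.58 to 5.41 FPKM around a median of 3.36), Xbp1 (0.49 ± 0.18) and Canx (0.39 ± 0.16), with adjusted p from 0.0772 to 0.132. Without SZ-A2, the SZ-A mouse with the lowest chaperone levels, Pdia6, Derl3 and Xbp1 were called as well and 5 members in all were called higher, and Eif2ak3 was called without NC4 (adjusted p = 0.0467). The median over the 34 members was 0.46 (all genes tested -0.01), 29 of the 34 lay above 0 (49.0% of all genes did), and with NC5 and SZ-A5 both left out, again a choice made after seeing the data, the median was 0.22 and 4 members were called, Atf5 as the added member.

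Other genes of the same pathways were read from lists outside the 34. In HFD against NC mice, 4 of 32 further ER folding genes were called higher and 1 lower. Over all genes tested, 10.7% were called higher and 9.49% lower in this comparison, the shares to read beside each list here. Nucb1 (0.38 ± 0.08, SE), a calcium-binding protein, and Sec61b (0.54 ± 0.12), a subunit of the protein channel into the ER, rose. Dnajc25 (-0.32 ± 0.09), a J-domain protein, fell. Of 19 glycosylation and glycan quality control genes 2 were called, the oligosaccharyltransferase subunits Tusc3 (0.44 ± 0.10) and Ddost (0.44 ± 0.14), both higher, and Mogs, which trims the first glucose, had -0.30 ± 0.10 and was not called. Of a separate list of 21 translocon and signal peptidase genes, which does not hold Sec61b, 1 was called, Ssr4, a translocon-associated protein (-0.28 ± 0.08), while Sec11a, a signal peptidase subunit, had 0.25 ± 0.09 and Srpr, the receptor of the signal recognition particle, -0.20 ± 0.07. Under median-ratio scaling Ssr4 was no longer called (-0.25, a fold below the 1.2 limit) and Sec11a was called (0.27). The calls of Ddost and Ssr4 were each lost in 11 of 25 alternatives (adjusted p up to 0.0888 and 0.457 in limma), while Tusc3 kept its call in all 24 that tested it.

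Of 28 degradation genes outside the set, 5 were called lower and 2 higher in HFD against NC mice, beside 9.49% and 10.7% of all genes tested. Os9 (-0.44 ± 0.07, SE, 79.9 FPKM in HFD and 108.7 in NC mice on average), a lectin of the HRD1 complex, fell, as did Ufd1 (-0.39 ± 0.07), which helps to extract substrates from the membrane, and Aup1 (-0.38 ± 0.08), a degradation and lipid droplet protein. Of 17 further sensors and transducers 2 fell, Creb3 (-0.41 ± 0.11) and Creb3l3 (-0.29 ± 0.09), a liver factor that is cut like ATF6, and Creb3l2 had 0.72 ± 0.25 and was not called. The Creb3l3 call was lost in 15 of 25 alternatives (log2 fold change down to -0.10, adjusted p up to 0.452 in limma), among them 10 of the 12 with 1 mouse left out. The median over the list was -0.08 for the degradation genes and 0.07 for the sensors, beside -0.03 for all genes tested.

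Other ATF4 target genes also went in both directions, with 5 of 28 called higher and 2 lower in HFD against NC mice, beside 10.7% and 9.49% of all genes tested. Cth, the cystathionine lyase that makes cysteine, fell from 434.7 ± 63.5 to 129.9 ± 21.4 FPKM (means with SD, 6 mice per group), which is -1.74 on the log2 scale with an SE of 0.13. Atf3, a stress-induced factor downstream of ATF4, rose by 2.40 ± 0.30 and Cars, a cysteinyl-tRNA synthetase, by 0.61 ± 0.10. Their median was -0.04. None of the 19 cytosolic heat shock genes was called. In SZ-A against HFD mice no gene of these 7 lists was called, and Cth had 0.07 ± 0.13 and Atf3 -1.05 ± 0.49 (adjusted p = 0.338 in limma). Against NC mice, SZ-A mice had 7 of the 32 further folding genes called, all higher, beside 5.31% of all genes called higher and 4.3% called lower. They had 1 each of the glycosylation, translocon and degradation lists called, also higher. None of the further sensors was called, 3 of the other ATF4 targets were called higher and 2 lower, and 1 heat shock gene was called higher.

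The livers were checked for markers of other cells. Of all genes tested, 10.7% were called higher and 9.49% lower in HFD against NC mice. The 9 hepatocyte markers in the table had sums of 43970 to 63130 FPKM for NC (median 47780), 30490 to 49610 for HFD (median 35390) and 36020 to 61330 for SZ-A (median 39620), and 3 of the 9 were called lower in HFD against NC mice. NC5 and HFD5 had the highest sum of their groups and SZ-A5 the lowest. Macrophage markers had sums of 131.4 to 270.3 FPKM for NC, 253.3 to 417.9 for HFD and 225.8 to 322.5 for SZ-A, and 4 of the 9 tested were called higher in HFD against NC mice. Stellate cell markers had sums of 65.0 to 80.7, 76.8 to 148.3 and 73.4 to 97.0 FPKM, and 8 of 10 were called higher. B and plasma cell markers were read because plasma cells are rich in ER chaperones. They had sums of 103.7 to 149.5 FPKM for NC, 80.2 to 102.0 for HFD and 84.1 to 135.9 for SZ-A. Of 4 tested, 1 was called lower in HFD against NC mice. In this list 6 of 10 markers had a mean under 1 FPKM, so the sums rest mainly on the 4 tested. Which liver cells expressed these 4 was not tested, so the lower sums in HFD mice do not show fewer B or plasma cells. All 8 T cell markers had a mean under 1 FPKM, 1 of 8 endothelial and 2 of 3 adipocyte markers tested were called higher in HFD against NC mice, and neither of the 2 cholangiocyte markers tested was called. In SZ-A against HFD mice 1 macrophage marker was called lower. In SZ-A against NC mice 2 hepatocyte markers and 1 each of the B and plasma cell, cholangiocyte and adipocyte markers were called lower. In the same comparison 2 stellate cell markers and 1 macrophage marker were called higher. Of all genes tested, 5.31% were called higher and 4.3% lower in SZ-A against NC mice. Of the 10 pancreas acinar markers 5 were at 0 in every mouse and 9 had a mean under 1 FPKM. Their sums were 3.23 to 5.17 FPKM for NC, 4.53 to 9.29 for HFD and 9.30 to 10.8 for SZ-A. All SZ-A mice lay above all other mice, but SZ-A2 (9.303 FPKM) and HFD5 (9.285 FPKM) were nearly level. Among all genes tested, 0.793% had every SZ-A mouse above every HFD mouse and 2.83% above every NC mouse. The 1 marker tested was called higher in SZ-A against NC mice (1.12) and was not called in SZ-A against HFD mice (0.68). Which cells expressed this marker was not tested, so the sums do not show pancreas tissue. The part of these cells in the member values was not tested.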

How the data were processed

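Liver polyadenylated RNA of 18 mice (6 per group) was sequenced with paired ends. The authors deposited 1 table of FPKM values per gene and mouse. The submitters' processing notes name HISAT2 2.0.5, featureCounts 1.5.0-p3 and build mm10. The deposited FPKM values gave whole fragments (within 0.05) for 100% of values once each library's factor (0.9325 to 1.1414) was applied, and these fragments were used only for voom and for depth. The factor differed between the groups. It was 0.9325 to 1.0248 in NC (median 0.98), 0.9983 to 1.1414 in HFD (median 1.11) and 0.9718 to 1.0468 in SZ-A mice (median 1.01). Groups came from the sample titles. Log2(FPKM + 0.1) of genes with a mean of at least 1 FPKM was fitted with limma 3.58.1 (trend, R 4.3.3) for each pair of groups, with Benjamini-Hochberg adjustment over the 10216 genes tested. This replaced the authors' count test because the table holds no counts. At the same thresholds, the paper reports more called genes in SZ-A against HFD mice from its count test than were called here. Intervals and standard errors are limma's. Self-tests were run on simulated data. Python 3.11.15 with pandas 2.3.3, numpy 2.4.6, scipy 1.17.1 and matplotlib 3.10.9 served for all other steps. No libraries of the same group were duplicates (lowest chi-square per degree of freedom 20.3), and libraries of different groups were not compared in this way.

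The members, the lists of other genes and the promoter elements were chosen with earlier results of these data known. Members were named when called, when among the 8 smallest p-values of a comparison with fewer calls, or as Hspa5, Xbp1, Atf4 and Ddit3, and other members and the mice named were chosen after their values were seen. Of each other list the 3 genes with the smallest p in HFD against NC mice were named. Alternatives were the pseudocount, the filter, the scaling, 1 fit over all mice, limma without trend, sample weights, the replicate number as a block, voom and each mouse left out. Leaving out NC5, HFD5 and SZ-A5 together was added after seeing the data. Mouse numbers were not used to pair the samples in the main fits. Same-numbered mice had correlations of -0.12 to 0.29 over 18 pairs, of which 3 were over 0.1, and HFD2 with SZ-A2 had the highest. Such correlations cannot exclude a cage or day shared by mice of the same number.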

Additional observations from a re-analysis of the deposited data

Results flagged for a closer look

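In 7 of the 102 sets of 6 FPKM values (34 genes in 3 groups), the highest mouse stood apart from the next. The gap, as a share of its group's range, was too wide for Dixon's test at the 95% level. Chance alone gives such a gap in about 1 of 20 sets only where values are normally distributed, which was not checked. The test was run on FPKM and was not repeated on the log2 scale of the fits, so these flags hold for the FPKM scale only. SZ-A5 was the mouse flagged for 4 genes of the ATF4-CHOP branch, with Atf5 at 384.1 FPKM (next mouse 185.8), Trib3 at 14.81 (7.232), Ppp1r15a at 5.765 (3.903) and Chac1 at 16.49 (5.016). Atf4 was 48.89 FPKM in NC5 and at most 30.69 in the other NC mice. Dnajb9, a co-chaperone of BiP, was 78.15 FPKM in HFD5 and at most 43.58 in the other HFD mice. Edem1 was 35.89 FPKM in SZ-A4 and at most 31.12 in the other SZ-A mice.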

How the results depend on the processing

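Of the calls in HFD against NC mice, those of Chac1, Asns, Atf5 and Eif2ak3 held with each mouse left out, that of Edem1 was lost without HFD6, and the number of members called higher was 2 to 4 and called lower 2 to 2 with each mouse left out (3 and 2 with all mice), with a median of 0.27 to 0.52. It was 6 higher with every mouse scaled to the same summed FPKM and 6 with voom on library totals, settings that moved the median of all genes from -0.03 to 0.15 under the first of these. It was 1 higher and 1 lower with a filter at a mean of 5 FPKM, which removes Asns, Chac1 and Eif2ak3 from the test. With the replicate block it was 1 higher, where Edem1 (adjusted p = 0.0809 in limma) and Eif2ak3 (0.0542) were not called. No source pairs the mice by number, and in 4 of the 18 same-number pairs a mouse correlated best with its own number. In SZ-A against HFD mice, 0 members were called in either direction with each mouse left out, with a median of -0.08 to 0.22. After scaling to the same summed FPKM, the log2 fold changes of Derl1, P4hb and Derl2 were -0.01, -0.03 and -0.09, and Derl2 had -0.02 with voom on library totals. In SZ-A against NC mice, members called higher were 1 without a filter, 1 with the filter at 5 FPKM and 1 with the same summed FPKM, settings in which Edem1 or Chac1 was not called, and 1 to 5 with each mouse left out (1 without SZ-A6, 5 without SZ-A2). Members called lower were 2 in 1 fit over all mice, 2 with sample weights, 2 with the replicate block and 2 with NC5, HFD5 and SZ-A5 left out together, and 1 to 2 with each mouse left out (2 without SZ-A5), with a median of 0.33 to 0.61. The cause of these changes was not tested, except that the filter at 5 FPKM leaves fewer genes. Scaling to the same summed FPKM, voom and median-ratio scaling all set aside the factor of each library, which differed between the groups. Under median-ratio scaling the same members were called in HFD against NC mice as in the main fit. Asns, Chac1 and Derl3 had under 50 fragments in some mice, which limits their precision.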
